A study of Mus musculus with 6 samples.

Results

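The fibroblast growth factor (FGF) ligands *Fgf1*, *Fgf2*, *Fgf7*, *Fgf9*, *Fgf10* and *Fgf18* were read in cultured mouse calvarial cells. The 6 genes were taken by their symbols from tables of 53715 genes, and all 6 had enough reads to be tested. Total RNA came from cells of the newborn skull vault that had spent 7 days in osteogenic medium. There were 3 Fam102a KO and 3 Wild-type libraries, all labelled osteoblast and strain C57BL/6J. The KO cells lacked *Fam102a* in every cell, from mice in which *Actb*-Cre had removed the exons between the loxP sites throughout the body, and the Wild-type cells had the intact gene. No source used here says whether the Wild-type mice carried Cre. The medium held ascorbic acid, β-glycerophosphate and dexamethasone, and no added FGF is listed.

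FGFs are secreted proteins that bind tyrosine kinase receptors together with heparan sulfate on the cell surface, and the receptors signal through the Ras and ERK cascade. *Fgf7* and *Fgf10* belong to 1 subfamily that connective tissue makes and that acts on epithelium through a splice form of *Fgfr2*. *Fgf9* and *Fgf18* act on skeletal cells through *Fgfr3* and the mesenchymal receptor forms, and mice that lack *Fgf18* show delayed closure of the skull sutures. *Fgf1* and *Fgf2* lack a classical signal peptide, and *Fgf2* is a mitogen of osteoblast precursors.

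*Fgf7*, *Fgf2* and *Fgf1* lie in the spans of other genes, and few of their reads were unique. In these tables a read is either unique to a gene or could also be placed elsewhere. *Fgf7* and *Fgf1* each lie wholly inside a gene of the opposite strand (*Fam227b* and *Arhgap26*), and other genes cover 99.9% of the span of *Fgf2*. Of 5323 *Fgf7* gene reads in the 6 libraries, 825 were unique, and every unique read crossed a splice junction. *Fgf2* had 255 unique reads of 3501, of which 201 crossed a junction. *Fgf1* had 6 unique reads of 127, all over a junction. None of the 1978 intron reads of *Fgf7*, the 793 of *Fgf2* or the 48 of *Fgf1* was unique. The same held for all 638 tested spliced genes that lie inside another gene, while 25 of 6784 (0.369%) that overlap no gene had no unique intron read. Spliced sequence is shown because most unique reads of *Fgf7* and *Fgf2* cross a splice junction, although the tables do not say which. The windows below run from the last 15 bases of the upstream exon to the first 15 bases of the downstream exon, in capitals, at the coding junctions of *Fgf7* (transcript Fgf7-201) and *Fgf2* (Fgf2-208) in GENCODE M21 (GRCm38). The windows of *Fgf10* (Fgf10-201), the relative of *Fgf7*, are given for comparison.
Fgf7, junction 1: tgaagaacagctacaACATCATGGAAATCA
Fgf7, junction 2: aaactctatgcaaagAAAGAATGCAATGAG
Fgf10, junction 1: aagactgtccgtacaGTGTCCTGGAGATAA
Fgf10, junction 2: aaactctatggctcaAAAGAGTTTAACAAC
Fgf2, junction 1: agagcgacccacacgTCAAACTACAACTCC
Fgf2, junction 2: cggctgctggcttctAAGTGTGTTACAGAA

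*Fgf7* and *Fgf10* had the same base at 14 of the 30 positions of junction 1 and at 19 of 30 of junction 2. *Fgf7* and *Fgf2* had 13 and 9 positions in common. *Fgf7* and *Fgf9*, whose windows are not shown, had 17 and 15. At junction 1 *Fgf9* matched *Fgf7* at more positions than *Fgf10* did, and at junction 2 at fewer. The introns removed at these junctions are 52234 and 1028 bases long in *Fgf7*, 65794 and 7509 in *Fgf10*, and 47160 and 8323 in *Fgf2*. All lie on the plus strand. On chromosome 2 the *Fgf7* junctions join base 126036000 to 126088235 and base 126088338 to 126089367. On chromosome 13 those of *Fgf10* join base 118715711 to 118781506 and base 118781609 to 118789119. On chromosome 3 those of *Fgf2* join base 37349024 to 37396185 and base 37396288 to 37404612.

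**Figure D1:**
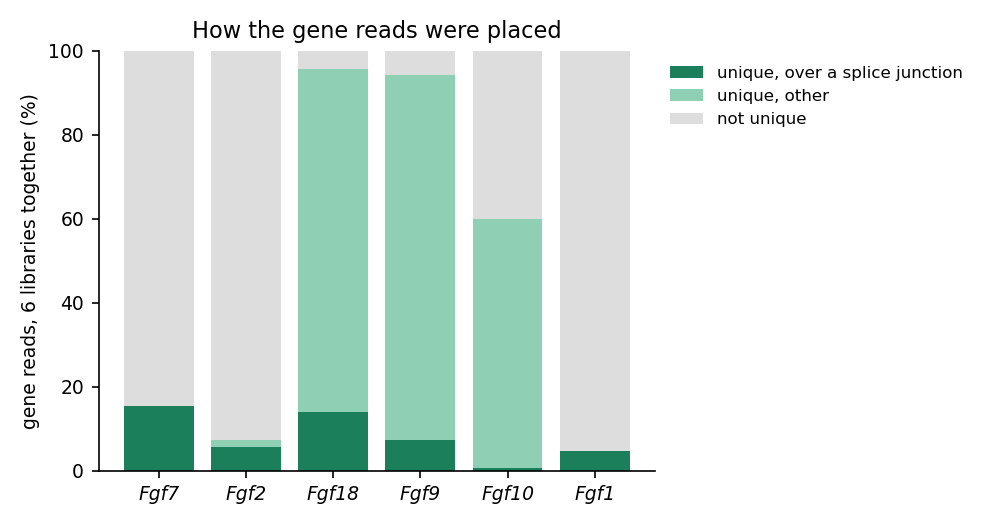
Share of the gene reads of each FGF ligand (percent, 6 libraries together) that were unique and crossed a splice junction, unique but did not, or were not unique. Unique reads made up 15.5% for *Fgf7*, 7.28% for *Fgf2* and 4.72% for *Fgf1*, against 94.2% for *Fgf9* and 95.7% for *Fgf18*.

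Other genes cover 16.4% of the span of *Fgf10*, 0.849% of that of *Fgf9* and none of that of *Fgf18*. The unique share was 95.7% for *Fgf18*, 94.2% for *Fgf9* and 60.0% for *Fgf10*, and the median over the 16391 genes tested was 93.8%. Of all genes tested, 4.31% had a lower unique share than *Fgf1*, 4.98% a lower share than *Fgf2* and 6.73% a lower share than *Fgf7*. *Fam227b*, whose span encloses *Fgf7*, had 424 reads in the 6 libraries, of which 397 were unique. *Arhgap26*, which encloses *Fgf1*, had 1943, of which 1410 were unique. Most reads of *Fgf7* that were not unique were thus not counted for *Fam227b*. In the annotation, *Fgf7* and *Fgf1* share no exon base with these neighbours. *Fgf2* shares 640 exon bases with *Nudt6*, a gene of the opposite strand that overlaps its end, and 255 with *Gm43439* of its own strand. Whether the counting used strand is not given in the sources used here. *Fgf7* and *Fgf1* lie inside genes of the opposite strand and had no unique intron read. Whether strand use in the counting accounts for this was not tested. With strand use unstated, reads of *Fgf2* and *Nudt6* in the shared bases cannot be told apart. *Nudt6* had 40, 74 and 71 gene reads in the Fam102a KO libraries and 56, 50 and 119 in the Wild-type libraries (adjusted p = 1.00 from edgeR).

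The libraries held 12934473 to 21210150 gene reads in Fam102a KO and 12212169 to 19985762 in Wild-type, so that 1 read is 0.0494 to 0.0719 CPM (gene reads scaled to library size with TMM factors) in Fam102a KO and 0.0518 to 0.0848 CPM in Wild-type. *Fam102a* itself had 185, 260 and 257 gene reads in the KO libraries against 170, 249 and 244 in Wild-type. Such totals include exons and introns outside the deleted stretch and check no label. Its junction reads, a measure picked with the values in view, were 17, 24 and 21 in Fam102a KO against 27, 43 and 45 in Wild-type, and its intron reads were 62, 86 and 100 in Fam102a KO against 46, 43 and 37 in Wild-type. The genotypes did not overlap in either, and the order was opposite. The 10 osteoblast markers summed to 20409 to 21203 CPM in Fam102a KO and 18749 to 22934 CPM in Wild-type, and *Bglap* and *Bglap2* were at 0 in at least 1 library. Of the 8 osteoblast markers tested, 3 had lower values at an unadjusted p under 0.05 and 0 had higher values. Of all genes tested, 6.05% had such a p, and 11.1% did not overlap between the genotypes in CPM. Skeletal muscle markers summed to 38.3 to 66.2 CPM in Fam102a KO and 23.9 to 37.6 CPM in Wild-type without overlap. Of these, 1 of 2 tested was higher at an unadjusted p under 0.05, and *Myod1* and *Myog* were at 0 in at least 1 library. Markers of Schwann and neural crest cells summed to 8.52 to 31.7 CPM in Fam102a KO and 4.14 to 11.3 CPM in Wild-type, with 1 of 2 tested higher. Chondrocyte markers summed to 966 to 2111 CPM in Fam102a KO and 1899 to 2415 CPM in Wild-type, with 1 of 4 tested lower. No tested marker of the other lists had such a p, and the genotypes overlapped in all of these: macrophage (357 to 1609 CPM in Fam102a KO and 736 to 2060 CPM in Wild-type), endothelial (8.35 to 90.6 CPM in Fam102a KO and 40.9 to 73.3 CPM in Wild-type), osteocyte (3.97 to 8.84 CPM in Fam102a KO and 3.68 to 5.26 CPM in Wild-type), adipocyte (3.91 to 9.04 CPM in Fam102a KO and 3.16 to 6.28 CPM in Wild-type) and epithelial (1.02 to 1.38 CPM in Fam102a KO and 1.19 to 1.95 CPM in Wild-type). Their part in the values below was not tested. In such bulk RNA, fewer cells of a type and less RNA per cell cannot be told apart.

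No FGF ligand differed between the genotypes at an adjusted p under 0.05. The share of all genes called by edgeR's quasi-likelihood test at this threshold was 0.0488% (8 of 16391). At an unadjusted p under 0.05, 1 of the 6 ligands passed, *Fgf2*, against 6.05% of all genes tested. *Fgf2* was also the only ligand whose libraries did not overlap between the genotypes in CPM, as in 11.1% of all genes. Of the 6, *Fgf1*, *Fgf9* and *Fgf18* had a log2 fold change (Fam102a KO over Wild-type) above 0, and *Fgf2*, *Fgf7* and *Fgf10* had one below 0, with a median of 0.08 against 0.00 over all genes tested.

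**Figure D2:**
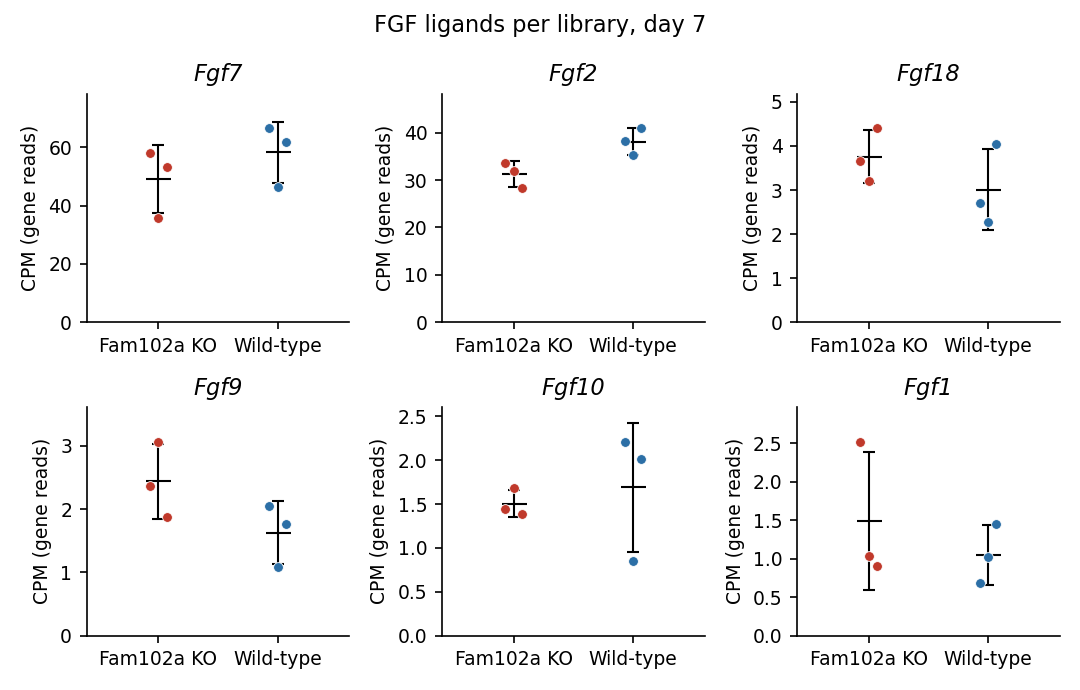
CPM of gene reads of each FGF ligand in each library (points), with mean and SD (bars, n = 3), Fam102a KO left of Wild-type. For *Fgf2* all Fam102a KO libraries (28.3 to 33.6 CPM) sit below all Wild-type libraries (35.2 to 40.9 CPM), and for the other ligands the genotypes overlap.

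*Fgf2* (ENSMUSG00000037225, chromosome 3 of mm10 from 37348346 to 37410108) encodes basic FGF, the ligand that osteoblast cultures store in their matrix. It had 467, 646 and 527 gene reads in the Fam102a KO libraries and 450, 621 and 790 in the Wild-type libraries. Scaled by library, this was 33.6, 31.9 and 28.3 CPM in Fam102a KO, against 38.2, 35.2 and 40.9 CPM in Wild-type. Every Fam102a KO library was below every Wild-type library, which with 3 against 3 gives the smallest p possible (2-sided exact permutation test, p = 0.1). The means were 31.2 ± 2.72 CPM in Fam102a KO and 38.1 ± 2.84 CPM in Wild-type (SD, n = 3 each). The log2 fold change was −0.29 (standard error 0.112, 95% interval −0.54 to −0.03, unadjusted p = 0.031, adjusted p = 0.761 from the edgeR fit). Without overlap, any pairing of libraries gives log2 differences below 0, and the same-numbered pairs stood at −0.18, −0.14 and −0.53. In the authors' RPKM, exon reads scaled to exon length and to gene reads of the library, the genotypes overlapped, with 4.01, 3.52 and 3.80 RPKM in Fam102a KO and 4.04, 3.63 and 4.75 RPKM in Wild-type.

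Few reads of *Fgf2* were unique. Its junction reads, all of them unique, numbered 21, 40 and 27 in Fam102a KO and 25, 28 and 60 in Wild-type. A fit on junction reads, chosen after the values were seen, gave a log2 fold change of −0.41 (adjusted p = 0.999 from edgeR), and one on unique gene reads gave −0.29 (adjusted p = 0.996 from edgeR). Over 16 alternative settings and left-out libraries the log2 fold change of *Fgf2* ran from −0.41 to −0.10, its unadjusted p was under 0.05 in 6 of them, and its adjusted p ran from 0.556 to 1.00 (edgeR, DESeq2 and limma).

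*Fgf7* (ENSMUSG00000027208, chromosome 2 of mm10 from 126034658 to 126091185) encodes keratinocyte growth factor, a signal of connective tissue to epithelium. It had the most reads of the 6, with 809, 726 and 993 in Fam102a KO and 784, 818 and 1193 in Wild-type. The levels were 58.2, 35.9 and 53.2 CPM in Fam102a KO, against 66.5, 46.4 and 61.8 CPM in Wild-type. Replicate 2 was the lowest library of either genotype, and the genotypes overlapped. The means were 49.1 ± 11.7 CPM in Fam102a KO and 58.2 ± 10.5 CPM in Wild-type (SD, n = 3 each), a log2 fold change of −0.25 (standard error 0.204, 95% interval −0.72 to 0.23, adjusted p = 1.00 from the edgeR fit). On the fold scale the interval ran from 0.608 to 1.17. Its log2 fold change was −0.06 without Fam102a KO replicate 2, −0.14 without Wild-type replicate 1, and −0.39 without Fam102a KO replicate 1 or Wild-type replicate 2.

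Within same-numbered pairs the 3 differences of *Fgf7* lay close together, at −0.19, −0.37 and −0.21 on the log2 scale. With the replicate number as a block the log2 fold change was −0.26 (unadjusted p = 0.0229, adjusted p = 0.483 from edgeR). With this block 1366 of 16391 genes had an unadjusted p under 0.05, against 991 without it. Whether the replicate numbers pair the libraries cannot be told. The unique reads of *Fgf7*, which are its junction reads, numbered 126, 102 and 151 in Fam102a KO and 105, 125 and 216 in Wild-type, with a log2 fold change of −0.29 (adjusted p = 0.996 from edgeR).

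*Fgf18* (ENSMUSG00000057967, chromosome 11 of mm10 from 33117430 to 33147400, minus strand) is a ligand that osteogenic cells of the skull sutures make. It had 51, 65 and 82 gene reads in Fam102a KO and 32, 40 and 78 in Wild-type. These were 3.67, 3.21 and 4.40 CPM in Fam102a KO, against 2.71, 2.27 and 4.04 CPM in Wild-type. Wild-type replicate 3 lay among the Fam102a KO libraries, and the other Wild-type libraries lay below them. The log2 fold change was 0.31 (standard error 0.29, 95% interval −0.34 to 0.97, adjusted p = 1.00 from the edgeR fit). It was 0.14 without Wild-type replicate 2, 0.18 without Fam102a KO replicate 3 and 0.60 without Wild-type replicate 3.

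Introns held 33.3 to 42.7% of its gene reads in the Fam102a KO libraries and 21.8 to 31.2% in the Wild-type libraries, without overlap (2-sided exact permutation test, p = 0.1, the smallest possible). Intron shares did not overlap in 7.59% of the 13907 tested genes with at least 10 reads in every library and any intron read, so 1 of 5 ligands is no result about the ligands. With exon reads alone, which numbered 34, 39 and 47 in Fam102a KO and 22, 28 and 61 in Wild-type, the log2 fold change was 0.06 (adjusted p = 0.998 from edgeR). Over all genes the intron share was 45.8 to 53.2% in Fam102a KO and 52.2 to 54.5% in Wild-type. The intron shares were compared in 5 ligands, and *Fgf2* (p = 0.6), *Fgf7* (p = 1), *Fgf9* (p = 0.5) and *Fgf10* (p = 0.2) overlapped between the genotypes in the same exact test.

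**Figure D3:**
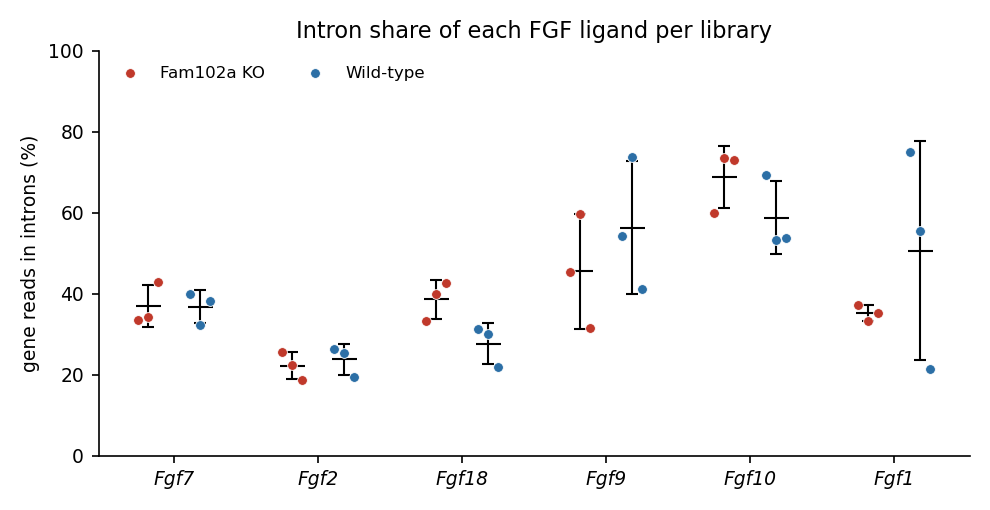
Percent of the gene reads of each FGF ligand that lie in introns, per library (points), with mean and SD (bars, n = 3), Fam102a KO left of Wild-type. For *Fgf18* the Fam102a KO libraries lie above the Wild-type libraries, and *Fgf1*, with as few as 8 reads in a library, spreads from 21.4 to 75.0% in Wild-type.

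*Fgf9* (ENSMUSG00000021974, chromosome 14 of mm10 from 58070547 to 58112720) is a ligand of growing bone and cartilage. Its gene reads numbered 33, 62 and 35 in Fam102a KO and 24, 19 and 34 in Wild-type. The levels were 2.37, 3.06 and 1.88 CPM in Fam102a KO, against 2.04, 1.08 and 1.76 CPM in Wild-type. Fam102a KO replicate 3 lay below Wild-type replicate 1, so the genotypes overlapped. The log2 fold change was 0.60 (standard error 0.35, 95% interval −0.20 to 1.39, adjusted p = 0.961 from the edgeR fit), the largest of the 6, and pair 2 alone stood at 1.41 while pairs 1 and 3 stood at 0.21 and 0.09. Without Fam102a KO replicate 2 it was 0.39 and without Wild-type replicate 2 it was 0.36 (adjusted p = 1.00 and 0.999 from edgeR). In RPKM, which uses exon reads only, *Fgf9* had 0.299, 0.254 and 0.307 in Fam102a KO and 0.194, 0.0566 and 0.215 in Wild-type. The genotypes did not overlap in these RPKM values, and the share of all genes without overlap in RPKM was not counted. Those values rest on 18, 25 and 24 exon reads against 11, 5 and 20, and the fit on exon reads gave a log2 fold change of 0.78 (adjusted p = 0.883 from edgeR).

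*Fgf10* (ENSMUSG00000021732, chromosome 13 of mm10 from 118669791 to 118792115) is the ligand of limb and lung budding. It had 20, 34 and 26 gene reads in Fam102a KO and 26, 15 and 39 in Wild-type. The Fam102a KO libraries, at 1.44, 1.68 and 1.39 CPM, lay within the range of the Wild-type libraries, at 2.21, 0.851 and 2.02 CPM. Introns held 64.4% of these reads, and 1 read in the 6 libraries crossed a splice junction. The log2 fold change was −0.15 (standard error 0.402, 95% interval −1.06 to 0.76, adjusted p = 1.00 from the edgeR fit), and it turned to 0.06 without Wild-type replicate 1 and to 0.01 without Wild-type replicate 3.

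*Fgf1* (ENSMUSG00000036585, chromosome 18 of mm10 from 38838673 to 38929404, minus strand) encodes acidic FGF, which binds every FGF receptor. Its gene reads numbered 35, 21 and 17 in Fam102a KO and 8, 18 and 28 in Wild-type, of which at most 2 in any library were unique. The levels were 2.52, 1.04 and 0.911 CPM in Fam102a KO, against 0.679, 1.02 and 1.45 CPM in Wild-type, with the highest and the lowest value in the replicate 1 libraries. The log2 fold change was 0.45 (standard error 0.493, 95% interval −0.67 to 1.56, adjusted p = 1.00 from the edgeR fit). Without Fam102a KO replicate 1 it was −0.13, and in replicates 2 and 3 of both genotypes, which carry the label of 1 sequencing run that replicate 1 lacks, it was −0.35. *Arhgap26*, which encloses *Fgf1*, had 285, 475 and 354 gene reads in Fam102a KO and 240, 273 and 316 in Wild-type.

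**Figure D4:**
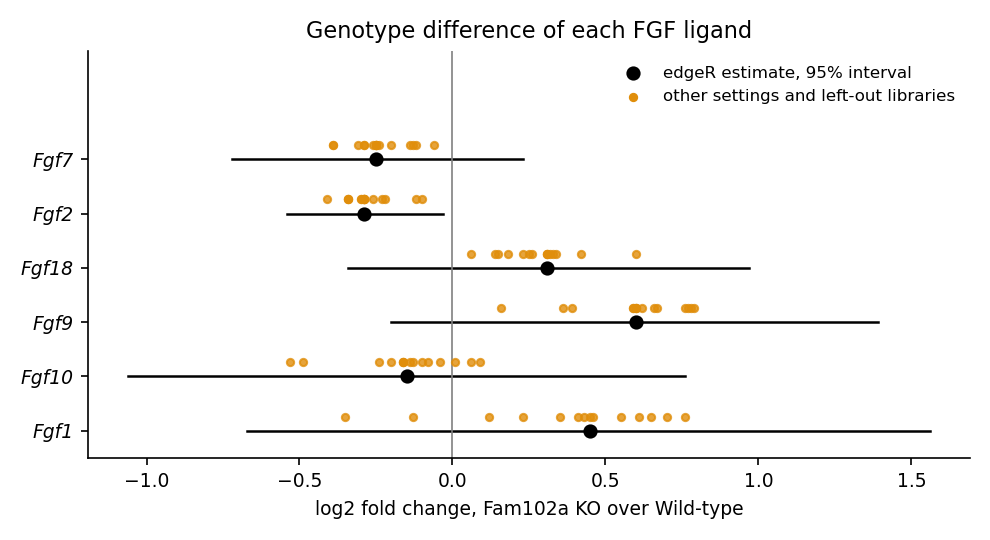
Log2 fold change of each FGF ligand, Fam102a KO over Wild-type, from edgeR with its 95% interval (black), and the estimates under the other settings and left-out libraries (orange). The interval of *Fgf2* (−0.54 to −0.03) stays below 0 before adjustment, and the other intervals include 0.

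Compared per length, in RPKM, the order of the ligands began alike in both genotypes. *Fgf7* stood first at 6.92 to 12.8 RPKM in Fam102a KO and 10.7 ± 1.53 RPKM in Wild-type (SD, n = 3), with 15.6% of the genes tested above it in Fam102a KO and 13.2% in Wild-type. *Fgf2* followed at 3.78 ± 0.245 RPKM in Fam102a KO and 4.14 ± 0.565 RPKM in Wild-type (SD, n = 3 each), and *Fgf18* at 2.04 ± 0.431 RPKM in Fam102a KO and 1.78 ± 0.701 RPKM in Wild-type. None of these neighbours overlapped in either genotype. *Fgf9*, *Fgf10* and *Fgf1* stood far below, at 0.287, 0.106 and 0.216 RPKM in Fam102a KO and 0.155, 0.139 and 0.121 RPKM in Wild-type. In Fam102a KO *Fgf1* overlapped *Fgf9*, and both lay above *Fgf10* in every library, while in Wild-type the ligands of this lower group overlapped each other. The gap between *Fgf18* and *Fgf9* was 7.12-fold in Fam102a KO and 11.4-fold in Wild-type.

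The pattern of each ligand over the 6 libraries was compared with that of every gene of at least 5 CPM, by Pearson's r of log2 CPM and as a description only. The nearest gene was *Klhdc10* for *Fgf7* (r = 1.000), *Slc35a3* for *Fgf2* (r = 0.989), *Xkr6* for *Fgf18* (r = 0.985), *Hmga2* for *Fgf9* (r = 0.989), *Zfp719* for *Fgf10* (r = 0.981) and *Irgm1* for *Fgf1* (r = 0.993). With 6 points and about 10509 genes such values are common, and 6 to 27 genes per ligand had r above 0.95. Among the ligands themselves, the highest r was 0.61 (*Fgf9* and *Fgf10*) and the lowest −0.31 (*Fgf2* and *Fgf18*).

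Of the 12 other secreted FGFs looked for, 1 had enough reads to be tested. *Fgf5*, a hair growth regulator, had 61, 202 and 26 gene reads in Fam102a KO and 33, 18 and 12 in Wild-type. This was 4.39, 9.98 and 1.39 CPM in Fam102a KO, against 2.80, 1.02 and 0.621 CPM in Wild-type, and the genotypes overlapped (log2 fold change 1.90, standard error 0.854, adjusted p = 0.876 from edgeR). Its log2 fold change was 1.00 without Fam102a KO replicate 2 and 2.67 without Wild-type replicate 1. The other 11 had 0 to 11 reads per library. *Fgf23*, the phosphate hormone of osteocytes, was among them with 4, 5 and 3 reads in Fam102a KO and 0, 2 and 1 in Wild-type, where a count of 0 allows up to 3 reads. *Fgf8* had 1 read in the Fam102a KO libraries together and 4 in Wild-type. The 4 FGF homologous factors, which stay inside the cell and bind sodium channels, were all tested, and *Fgf14* passed at an unadjusted p under 0.05. Its gene reads stood at 16.5 ± 1.03 CPM in Fam102a KO and 23.3 ± 3.13 CPM in Wild-type, without overlap (SD, n = 3 each). The edgeR fit put its log2 fold change at −0.50, with standard error 0.135 and adjusted p = 0.494. Introns held 1510 of its 1998 gene reads in the 6 libraries, and 6 reads crossed a splice junction. Of the 1998 reads, 1182 were unique. An unadjusted p under 0.05 occurred in 6.05% of all genes tested, and 11.1% did not overlap in CPM.

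The partners of the ligands were counted in lists, and 0 of their 61 tested genes passed at an adjusted p under 0.05 in the edgeR fit, while 11 had an unadjusted p under 0.05. Over all genes tested these shares were 0.0488% and 6.05%, and the lists were chosen with earlier results of these data known. Libraries did not overlap between the genotypes in CPM in 11.1% of all genes tested. *Fgfr3* and *Fgfrl1* stood close to the threshold on adjusted p. All 5 receptors had a log2 fold change below 0, with a list median of −0.88 against 0.00 over all genes tested, and 3 had an unadjusted p under 0.05 (*Fgfr3*, *Fgfr4* and the decoy receptor *Fgfrl1*). *Fgfr3*, the receptor that restrains cartilage growth and that *Fgf9* and *Fgf18* bind, had 17.8, 20.3 and 15.7 CPM in Fam102a KO against 37.7, 51.3 and 61.5 CPM in Wild-type. The genotypes did not overlap, and edgeR gave a log2 fold change of −1.48 (standard error 0.186) with an adjusted p = 0.0503. It passed in 7 of 16 alternatives, among them exon reads (adjusted p = 0.0429 from edgeR) and DESeq2 (adjusted p = 9.69e-09). Its adjusted p reached 0.293 with replicates 2 and 3 only. Of all genes tested, DESeq2 called 121, against 8 in the main fit.

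*Fgfrl1* had 22.6, 25.5 and 20.3 CPM in Fam102a KO against 39.9, 41.1 and 44.7 CPM in Wild-type, without overlap (log2 fold change −0.88, standard error 0.118, adjusted p = 0.0572 from edgeR). It passed in 2 of 16 alternatives, DESeq2 (adjusted p = 4.96e-05) and no filter on low counts (adjusted p = 5.27e-07 from edgeR). These settings called 121 and 340 genes in all, against 8 in the main fit. *Fgfr2*, whose splice form in epithelium receives *Fgf7* and *Fgf10*, had 792, 483 and 469 CPM in Fam102a KO and 777, 693 and 729 CPM in Wild-type (log2 fold change −0.33, adjusted p = 0.976 from edgeR). Fam102a KO replicate 1 lay above every Wild-type library, and without it the log2 fold change was −0.62 (adjusted p = 0.509 from edgeR). *Fgfr2* passed in 2 of 16 alternatives, exon reads (log2 fold change −1.01, adjusted p = 0.042 from edgeR) and junction reads (−1.03, adjusted p = 0.0051 from edgeR). *Fgfr4* had 0.738 ± 0.261 CPM in Fam102a KO and 1.84 ± 0.724 CPM in Wild-type (SD, n = 3 each), and *Fgfr1*, a receptor of *Fgf2* in mesenchyme, had 161 ± 19.8 CPM in Fam102a KO and 173 ± 11.6 CPM in Wild-type.

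Among 12 tested coreceptors and carriers, *Sdc4* alone had an unadjusted p under 0.05 (145 ± 25.9 CPM in Fam102a KO and 182 ± 7.80 CPM in Wild-type). Of all genes tested, 6.05% had such a p. Of 10 genes that build or trim heparan sulfate, *Ext1* and *Hs2st1* had such a p with higher values and 0 with lower. *Hs2st1*, the 2-O-sulfotransferase of heparan sulfate, had 50.8, 61.5 and 50.9 CPM in Fam102a KO against 44.5, 38.5 and 36.3 CPM in Wild-type (log2 fold change 0.45, adjusted p = 0.504 from edgeR). Of 18 genes of the signal relay, *Frs2*, the docking protein of FGF receptors, alone had an unadjusted p under 0.05 (38.4 ± 0.444 CPM in Fam102a KO and 45.8 ± 4.65 CPM in Wild-type).

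Among 16 feedback and response genes, 4 had higher values with an unadjusted p under 0.05 and 0 had lower values. Of all genes tested, 6.05% had such a p in either direction. The median log2 fold change of the 16 was 0.16. *Spry1*, an inhibitor that FGF signalling induces, had 8.59 ± 2.33 CPM in Fam102a KO and 3.05 ± 0.962 CPM in Wild-type (log2 fold change 1.51, standard error 0.296, adjusted p = 0.223 from edgeR). It passed in 2 of 15 alternatives, DESeq2 (adjusted p = 0.0016) and no filter on low counts (adjusted p = 3.26e-06 from edgeR). These settings called 121 and 340 genes in all, against 8 in the main fit. *Etv4*, a transcription factor of the same response, had 4.82, 5.93 and 6.33 CPM in Fam102a KO against 3.65, 2.78 and 3.26 CPM in Wild-type (log2 fold change 0.82, adjusted p = 0.494 from edgeR). The genotypes did not overlap for either gene. Without overlap were 3 of the 16 genes, against 11.1% of all genes tested. *Spred3* (log2 fold change 0.72) and the ERK phosphatase *Dusp6* (0.46) were the others, while *Spry2*, *Spry4* and *Etv5* stood at 0.20, 0.29 and 0.10 and did not pass. Of the 16 genes, 11 had a log2 fold change above 0 and 5 had one below 0. The lowest was *Fos* at −0.91, with 8.51 ± 0.148 CPM in Fam102a KO and 15.8 ± 14.0 CPM in Wild-type (SD, n = 3 each). Wild-type replicate 3 alone stood at 31.9 CPM for *Fos*, which did not pass either.

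**Figure D5:**
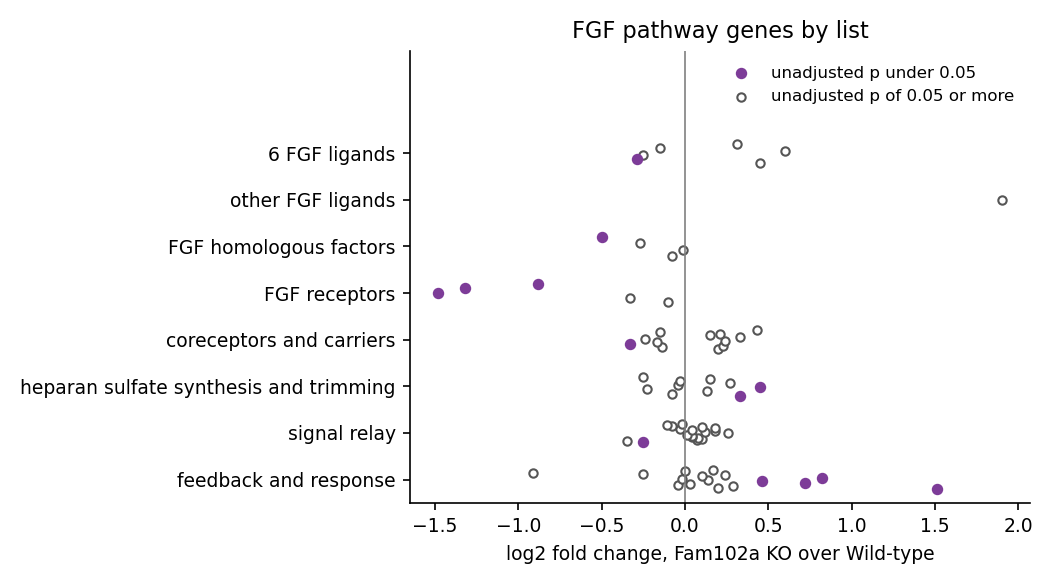
Log2 fold change, Fam102a KO over Wild-type, of the FGF ligands and of the tested genes of each FGF pathway list (points, spread vertically within a list for legibility). Filled points have an unadjusted p under 0.05 from edgeR, and the smallest adjusted p is 0.0503 (*Fgfr3*). The receptors lie below 0, and the feedback genes that pass lie above 0.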

How the data were processed

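Amplified cDNA (SMART-seq v4) was read on an Ion Proton sequencer and counted by the authors with CLC Genomics Workbench. The genome build per the labels is mm10, with mapping settings, annotation release and strand use left unstated. The deposited read counts per gene (total and unique reads of gene, exon, junction and intron) were analysed. The deposited RPKM, which the authors computed from exon reads, exon length and gene reads, served for levels between genes, and the deposited TPM, which the authors rescaled from RPKM to a fixed sum, entered no result.

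Gene reads were tested with edgeR 4.0.16 (R 4.3.3): filter at a minimum count of 10 (total 15, large n 10, proportion 0.7), TMM, robust quasi-likelihood fit on genotype, and Benjamini-Hochberg adjustment over 16391 genes at 0.05. CPM are TMM-scaled. Standard errors were derived from the fold change and its F statistic, and 95% intervals use the test's degrees of freedom. The fit was tested on simulated data, with changes larger than those of the ligands in genes of higher level than most of them. That run does not measure how well the ligands' changes can be found. Exact permutation tests used the 20 assignments of 3 against 3. Nothing in the labels says that libraries came from separate animals, so p-values measure the spread between these libraries, which may be technical. The 95% intervals likewise rest on that spread, and a floor of 3 reads for a count of 0 covers counting error only.

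Alternatives were RLE factors, DESeq2 1.42.0, no filter, unique reads, exon reads, limma 3.58.1 on log2(RPKM + 0.1) and log2(RPKM + 1), a replicate block, replicates 2 and 3 only and each library left out. The fit on junction reads was chosen after seeing the data. Replicates 2 and 3 share a run name in their tables. Over 10886 genes, deviations from the group means correlated with r = 0.31, 0.24 and 0.29 in same-numbered libraries and −0.32 to 0.09 in the others. Such deviations cancel within a group, so some matching of libraries tends to come out positive. Whether the replicate numbers pair the libraries cannot be told from these values. What the numbers mark is unstated.

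Genes named are the 6 ligands, *Fam102a*, *Nudt6*, tested genes of the other FGF lists, genes of the pathway lists at an unadjusted p under 0.05 and otherwise up to 3 by level (*Fgfr1* and *Fgfr2* among the receptors), and the gene nearest to each ligand. *Fam227b*, *Arhgap26*, *Gm43439*, *Fgf8*, *Fgf23*, *Spry2*, *Spry4*, *Etv5* and *Fos* were named after their values were seen. The ligands and lists were chosen with earlier results of these data known. Gene positions of *Fgf2*, *Fgf7*, *Fgf9*, *Fgf10* and *Fgf18* in GENCODE M21 equal those in the tables. Python 3.11.15, numpy 2.4.6, pandas 2.3.3 and matplotlib 3.10.9 were used.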

Additional observations from a re-analysis of the deposited data

How the results depend on the processing

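No ligand was called in any of the alternatives, in which edgeR, DESeq2 and limma tested 2 to 6 of the 6. The direction held in all alternatives that tested the gene for *Fgf2* (16), *Fgf7* (16), *Fgf9* (15) and *Fgf18* (15). The sign of *Fgf1* turned with replicates 2 and 3 only (−0.35) and without Fam102a KO replicate 1 (−0.13, range −0.13 to 0.76 with 1 library left out), and that of *Fgf10* with replicates 2 and 3 only (0.09), without Wild-type replicate 1 (0.06) and without Wild-type replicate 3 (0.01, range −0.49 to 0.06 with 1 library left out). Among partners, *Fgfr1* stood at 0.01 by limma on both RPKM scales and *Frs2* at 0.05 on junction reads, against −0.10 and −0.25. The cause was not tested. Over all genes, 8 were called, against 121 with DESeq2, 340 without a filter (35404 genes tested), 13 on junction reads (10627 tested), 0 by limma on either RPKM scale (1310 and 1347 at an unadjusted p under 0.05), 0 with replicates 2 and 3 only (853 at an unadjusted p under 0.05) and 0 to 13 with 1 library left out. With the replicate block 9 genes were called, and it changed no call of a ligand. Depth limits *Fgf1*, *Fgf9* and *Fgf10* most, with 8 to 62 reads per library, and unique placement limits *Fgf1*, *Fgf2* and *Fgf7*.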
